A study of Mus musculus with 22 samples.

Results

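The genes described here encode 10 regulators of alternative splicing that neurons and glia use, Rbfox1, Rbfox2, Rbfox3, Celf1, Celf2, Celf4, Nova2, Mbnl1, Mbnl2 and Qk. They were chosen by name, and a footprint was counted for a gene when it overlapped the gene's annotated span by at least 1 nt. The 10 genes are among 13948 genes with a footprint in at least 1 mouse, and they held 530 of the 136207 footprints (0.389%). A footprint is a stretch of RNA retained after crosslinking and immunoprecipitation of hnRNP A1, an RNA-binding protein that itself regulates splicing. It was kept by the authors when it appeared in the immunoprecipitate of a mouse and not in the input or in the control IgG. Footprints carry neither a read count nor a strand, so the values are numbers of footprints and covered nucleotides (nt), and the depth behind a footprint is unknown. A gene at 0 is a gene with no footprint retained.

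The tissue was spinal cord from female wild-type C57Bl/6 mice, 3 of them naïve and 7 with experimental autoimmune encephalomyelitis (EAE), a model of multiple sclerosis in which immunization against a myelin protein brings immune cells into the cord. EAE mice had received complete Freund's adjuvant with the myelin peptide MOG(35-55), and pertussis toxin, at 12 weeks of age by the treatment protocol and at 8 weeks by the series text, and were killed 15 days after clinical onset. Naïve mice were matched for age, and the sources used here describe no injection of adjuvant or toxin alone for them. The labels number the EAE mice from 1 to 7. Mice 3, 4 and 7 had clinical scores of 1 to 1.5 and form the mild EAE group, and mice 1, 2, 5 and 6 had scores of 2.5 to 3 and form the severe EAE group. The labels give the antibody as clone 9H10 and the study's methods name another clone. The whole cord was lysed, so footprints come from all of its cell types together, and fewer cells of a type cannot be told apart from less bound RNA per cell.

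RBFOX proteins bind UGCAUG next to alternative exons and raise or lower their inclusion according to the side on which they bind. Rbfox3 encodes NeuN, the usual stain for neuronal nuclei, while Rbfox1 and Rbfox2 act in neurons and in other cells. CELF proteins bind GU-rich RNA, NOVA proteins bind UCAU in neuronal transcripts, and muscleblind (MBNL) proteins bind UGCUU and related sites. Qk encodes QKI, which binds ACUAA and is required in oligodendrocytes for the splicing and handling of myelin transcripts. Many genes of such regulators are themselves alternatively spliced, and hnRNP A1 binds UAG and related purine-rich RNA.

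The stretches that mice of several groups had in common are shown here on the strand of the gene, with every TAG (UAG in the RNA) in capitals and coordinates of GRCm38. The first stands for the position footprinted in the most mice. It is 135 nt of a Celf2 intron at chr2:6827176-6827310 on the minus strand, covered in 8 of the 10 mice, and the 4 that follow are the Rbfox1 intron stretches shared by at least 2 naïve and 2 mild EAE mice. They lie on the plus strand at chr16:6316793-6316876, chr16:6864671-6864749, chr16:6867119-6867273 and chr16:7103085-7103211.
Celf2 intron: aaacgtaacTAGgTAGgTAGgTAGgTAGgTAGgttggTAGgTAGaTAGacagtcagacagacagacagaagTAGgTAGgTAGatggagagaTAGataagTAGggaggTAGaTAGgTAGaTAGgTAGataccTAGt
Rbfox1 intron, 84 nt: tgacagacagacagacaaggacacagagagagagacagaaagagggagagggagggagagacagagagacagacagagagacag
Rbfox1 intron, 79 nt: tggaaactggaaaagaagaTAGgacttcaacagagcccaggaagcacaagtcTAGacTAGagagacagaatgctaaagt
Rbfox1 intron, 155 nt: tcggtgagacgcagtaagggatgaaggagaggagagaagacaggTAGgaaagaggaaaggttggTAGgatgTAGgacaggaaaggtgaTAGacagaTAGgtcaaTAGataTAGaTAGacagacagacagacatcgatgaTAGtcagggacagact
Rbfox1 intron, 127 nt: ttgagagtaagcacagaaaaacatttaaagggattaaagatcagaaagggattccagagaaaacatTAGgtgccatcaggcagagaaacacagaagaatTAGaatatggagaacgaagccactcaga
The Celf2 stretch holds 20 UAG, 72.6% of its bases are purines and 93.3% are repeat-masked in the assembly. The Rbfox1 stretches hold 0, 3, 9 and 2 UAG in this order, and 85.7%, 69.6%, 75.5% and 70.1% of their bases are purines. The stretch without UAG is a purine repeat that is masked over its whole length. Footprints were assembled from reads and placed on the genome by alignment, and how exactly such repeats were placed was not tested.

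Exonic footprints could stop exactly at an annotated exon end. In Rbfox2, 5 mice (naïve mice 1 and 2, mild EAE mice 3 and 4, severe EAE mouse 5) each had a pair of footprints that abutted both ends of the same annotated intron, at 77117068 to 77132716 on chromosome 15, 15649 nt long. The part common to the 5 mice, 36 nt of the upstream and 70 nt of the downstream coding exon at chr15:77132717-77132752 and chr15:77116998-77117067 on the minus strand, reads across the junction as 1 run of 106 nt, which 11 of the 15 annotated Rbfox2 transcripts contain.
Rbfox2 exon junction: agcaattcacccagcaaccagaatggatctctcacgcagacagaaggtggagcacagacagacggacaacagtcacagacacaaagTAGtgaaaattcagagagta
This run holds 1 UAG. The exonic stretches with the most mice in Celf1 (111 nt, naïve mouse 1 and severe EAE mouse 5) and Nova2 (163 nt, naïve mouse 3) are given for comparison, at chr2:91003245-91003355 and chr7:18950457-18950619, both on the plus strand.
Celf1 exon: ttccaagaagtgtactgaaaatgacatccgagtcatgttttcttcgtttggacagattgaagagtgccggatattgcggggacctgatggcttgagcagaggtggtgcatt
Nova2 exon: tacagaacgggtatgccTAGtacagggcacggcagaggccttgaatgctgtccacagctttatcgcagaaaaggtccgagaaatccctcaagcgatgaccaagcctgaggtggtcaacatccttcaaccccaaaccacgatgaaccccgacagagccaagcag
These hold 0 and 1 UAG. No region of Nova2 was footprinted in more than 1 mouse, so the longest is shown.

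The lists of the 10 mice differed in length. Naïve mice had 17119 to 17494 footprints, and 9751 to 24433 were listed for mild EAE mice, whereas severe EAE mouse 5 had 31870 and severe EAE mice 1, 2 and 6 had 2670, 209 and 673. Covered nt are therefore also given per 100000 covered nt of the mouse, called the share. Differences of group means were tested by a two-sided exact permutation test over all splits of the mice, adjusted by the Benjamini-Hochberg method over the 9195 genes footprinted in at least 2 mice, which include all 10 described here. No gene passed an adjusted 0.05 in any comparison by this test. The smallest p is 0.00833 for 7 EAE against 3 naïve mice, 0.0286 for severe EAE and 0.1 for mild EAE. An adjusted call would have needed 1533 genes at the smallest p in all EAE against naïve mice, where 125 had it.

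Rbfox1 was the most footprinted of the 10 genes, with 297 of the 530 footprints. It spans 1526172 nt on the plus strand of chromosome 16 (5885355 to 7411526), of which 0.288% is exonic. Footprints covered 9419, 5478 and 6894 nt in naïve mice 1, 2 and 3, then 1371, 2908 and 6933 nt in mild EAE mice 3, 4 and 7. In severe EAE they covered 447, 0, 10465 and 160 nt in mice 1, 2, 5 and 6. Severe EAE mouse 5 was thus the highest of all mice and the other 3 severe EAE mice the lowest. Means were 7264 ± 1996 nt in naïve mice (SD, n = 3) and 3183 ± 4025 nt in EAE mice (n = 7), a difference within the spread (exact permutation test, p = 0.158).

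As a share, Rbfox1 was at 424, 267 and 315 nt per 100000 in naïve mice 1, 2 and 3. It was at 88.5, 251 and 232 in mild EAE mice 3, 4 and 7, and at 135, 0, 253 and 211 in severe EAE mice 1, 2, 5 and 6. All 3 naïve mice lay above all 7 EAE mice, as in 224 of the 9195 genes (2.44%) and in no other of the 10. The lowest naïve mouse and the highest EAE mouse were close, at 267 and 253. Mean shares were 335 ± 80.8 in naïve mice (SD, n = 3) and 167 ± 96.3 in EAE mice (n = 7), which gave an unadjusted exact permutation p of 0.025 and an adjusted p of 0.530. With 1 mouse left out at a time the difference ran from −203 to −124, and the unadjusted exact p was above 0.05 without naïve mouse 1 (0.0833), naïve mouse 2 (0.0556), naïve mouse 3 (0.0833) or severe EAE mouse 1 (0.0595).

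**Figure D1:**
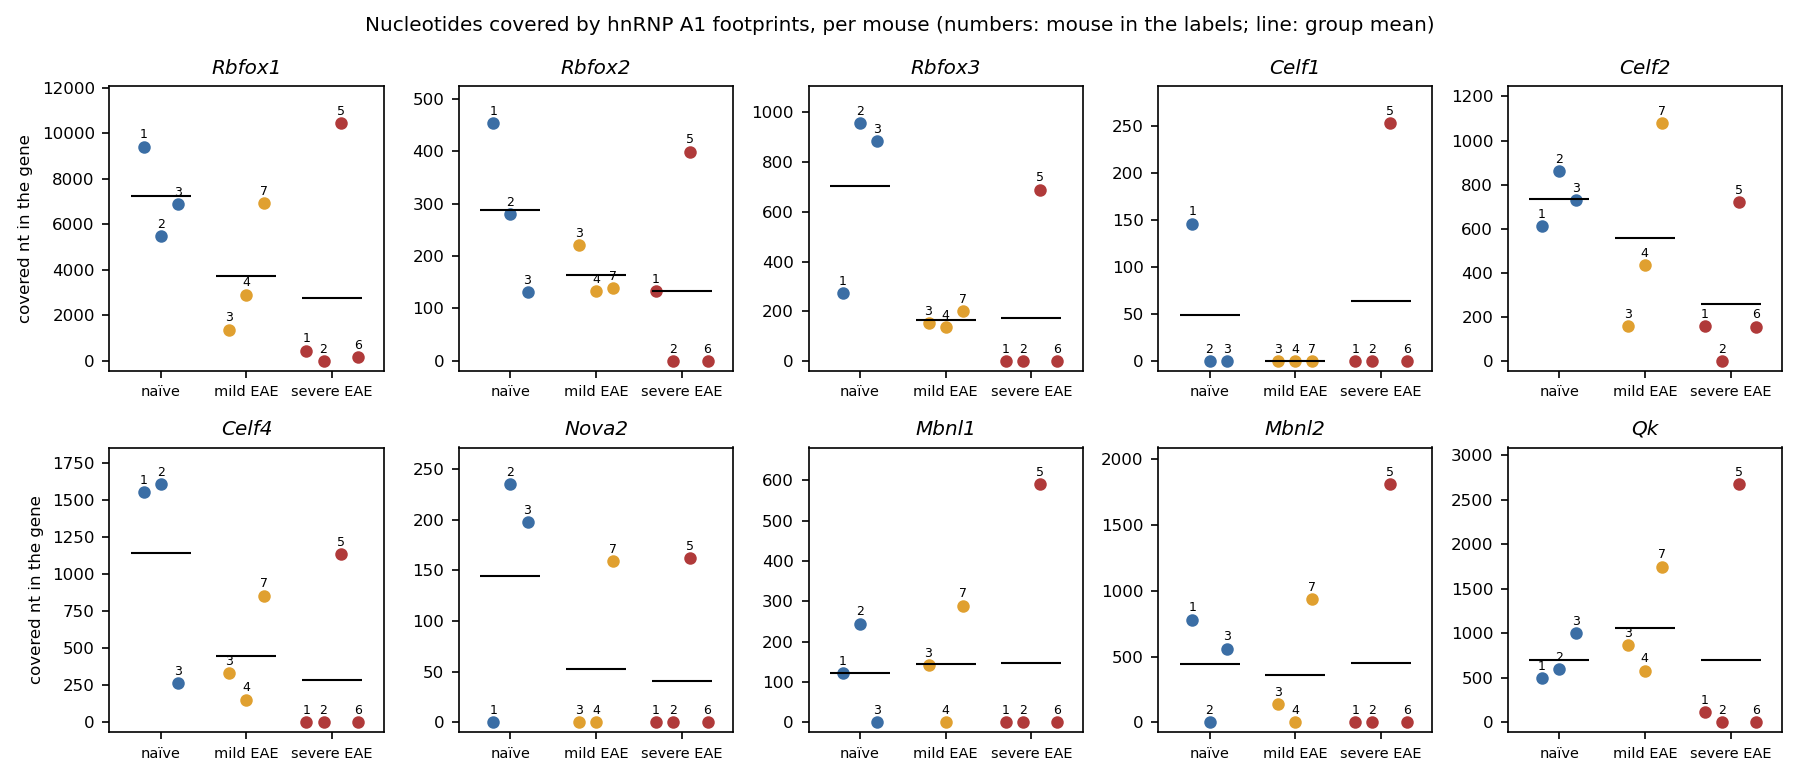
Covered nt in each of the 10 genes (y axis, its own linear scale for each gene) in every mouse, by group on the x axis. Points are mice, numbered as in the labels, and lines are group means. Severe EAE mouse 5 is the highest of the 10 mice in Rbfox1, Celf1, Mbnl1, Mbnl2 and Qk, and severe EAE mice 1, 2 and 6 lie at or near 0 in most genes.

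Nearly all Rbfox1 footprints lay in introns, and the share of intronic footprints in all other genes also differed between the groups. In other genes it was 38.0%, 41.6% and 27.5% of the footprints within genes for naïve mice 1, 2 and 3. For mild EAE mice 3, 4 and 7 it was 10.6%, 23.0% and 18.1%, and for severe EAE mice 1, 2, 5 and 6 it was 18%, 31.8%, 21.0% and 23.3%. Among intronic footprints alone, Rbfox1 held 10.6, 6.54 and 10.8 of 1000 for naïve mice 1, 2 and 3. Mild EAE mice 3, 4 and 7 had 5.48, 7.33 and 11.1 of 1000, and severe EAE mice 1, 2, 5 and 6 had 4.84, 0, 9.84 and 7.04. This scale counts footprints and not covered nt, and it was computed after the shares had been seen. On it the groups overlapped, and mild EAE mouse 7 was the highest of the 10 mice. Likewise, of the footprints in the 230 protein-coding genes of at least 500000 nt, Rbfox1 held 2.05%, 1.66% and 2.28% in naïve mice, followed by 1.64%, 1.54% and 2.16% in mild EAE mice, with 3.17%, 0%, 1.96% and 3.85% in severe EAE mice 1, 2, 5 and 6. Here severe EAE mice 1 and 6 lay above every naïve mouse, from 4 footprints and 1 in Rbfox1. How far the intronic part of the lists bears on the Rbfox1 share was not tested.

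Other long genes were footprinted more densely than Rbfox1. Among these 230 genes it ranked 13 to 25 by footprints per unit length in naïve mice, 18 to 28 in mild EAE mice and 22 in severe EAE mouse 5. In naïve mouse 1 it had 4.32 footprints per 100 kb, where the median long gene had 0.648 and the highest 14.3.

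Along the gene, footprints were concentrated in 1 intron. The union of annotated Rbfox1 exons leaves 21 intronic gaps, and the gap from 924 to 1184 kb from the gene start, 17.1% of the span, held 133 of the 297 footprints (44.8%). This is 51.0 footprints per 100 kb, compared with 13.0 in the rest of the gene. The percentage was 45.5, 44.2 and 40.8 in naïve mice 1, 2 and 3, 44.4, 46.7 and 50 in mild EAE mice 3, 4 and 7 and 45.3 in severe EAE mouse 5, so that these 7 mice, with between 9 and 66 Rbfox1 footprints each, placed a like part of them in this intron. Severe EAE mouse 1 had none of its 4 footprints there and severe EAE mouse 6 its only one. In the last 187 kb, which hold 12 of the gaps, 3 intronic footprints were found in all mice together. Intronic Rbfox1 footprints were a median of 58515 nt from the nearest exon end, and 61 of the 297 (20.5%) were repeat-masked over most of their length.

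**Figure D2:**
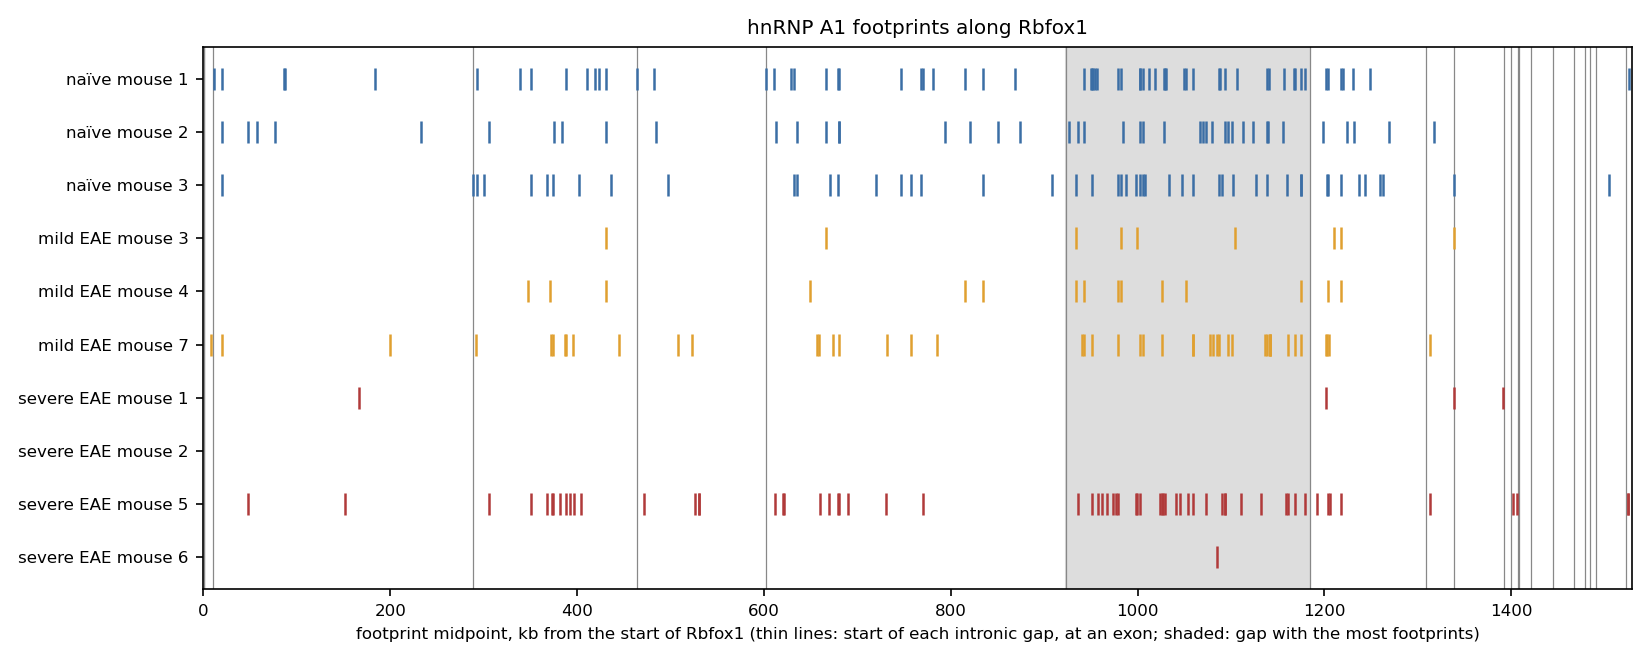
Midpoints of Rbfox1 footprints (ticks) in kb from the start of the gene on the x axis, with 1 line of ticks for each mouse. Thin lines mark the start of each intronic gap, and the shaded gap holds 133 of the 297 footprints. The 7 mice with 9 or more footprints have 40.8 to 50% of them in the shaded gap, and few ticks lie beyond it near the end of the gene.

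Rbfox2 and Rbfox3, the other RBFOX genes, had far fewer footprints, and these lay more in exons. Rbfox2 (chromosome 15, 77078990 to 77307004, minus strand) held 18 footprints, 12 in coding sequence, 4 in untranslated regions (UTRs) and 2 in introns. They covered 454, 280 and 131 nt in naïve mice 1, 2 and 3, followed by 221, 133 and 139 nt in mild EAE mice 3, 4 and 7. In severe EAE mice 1, 2, 5 and 6 they covered 133, 0, 399 and 0 nt, so the 3 groups overlapped. The difference of all EAE from naïve mice, −142 nt, was within the spread (exact permutation test, p = 0.192). The junction shown above accounted for 5 of the 6 pairs of Rbfox2 footprints that abutted an intron, and the downstream exon of this pair is one that some annotated transcripts skip.

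Rbfox3, the NeuN gene (chromosome 11, 118489762 to 118911597, minus strand), had 30 footprints. Naïve mice 1, 2 and 3 had 273, 958 and 885 nt covered, mild EAE mice 3, 4 and 7 had 153, 135 and 201 nt, and severe EAE mouse 5 had 689 nt, while severe EAE mice 1, 2 and 6 had none. All naïve mice lay above all mild EAE mice, as in 354 genes (3.85%), and severe EAE mouse 5 lay among the naïve mice. No other of the 10 genes had this pattern, and in none did all naïve mice lie above all severe EAE mice, which 318 genes (3.46%) showed. The means of 705 ± 376 nt in naïve mice (SD, n = 3) and 168 ± 244 nt in EAE mice (n = 7) gave an unadjusted exact permutation p of 0.0167 and an adjusted p of 0.675. This exact p was 0.0556 without naïve mouse 2 or without naïve mouse 3.

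As a share, Rbfox3 was at 12.3, 46.6 and 40.5 nt per 100000 in naïve mice 1, 2 and 3, at 9.88, 11.7 and 6.73 in mild EAE mice 3, 4 and 7 and at 16.6 in severe EAE mouse 5. Naïve mouse 1 was low and overlapped the EAE mice. The means, 33.1 ± 18.3 (SD, n = 3) and 6.42 ± 6.68 (n = 7), differed at an unadjusted exact permutation p of 0.0167 (adjusted p = 0.502; 0.0556 unadjusted without naïve mouse 2 or 3). Of the Rbfox3 footprints, 10 of 17 from naïve mice were intronic, whereas 1 of 4 from mild EAE mice and 1 of 9 from severe EAE mice were. Severe EAE mouse 5 alone had 6 of the 8 pairs of Rbfox3 footprints that abutted an annotated intron. Some of its footprints belonged to more than 1 of these pairs. The region in the most mice, 4 of 10, covered coding sequence and UTR at 118505623 to 118505775, and another pair, in naïve mouse 2 and severe EAE mouse 5, abutted the intron at 118670754 to 118811277.

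Of the CELF genes, Celf1 had almost no footprints, with 146 nt in naïve mouse 1, 253 nt in severe EAE mouse 5 and none in the other 8 mice. All 4 of its footprints were in coding sequence (chromosome 2, 90940382 to 91019497, plus strand). Celf2, which is expressed in brain and in lymphocytes, spans 969870 nt of chromosome 2 (6539694 to 7509563, minus strand). Footprints covered 611, 860 and 728 nt of it in naïve mice 1, 2 and 3, 157, 434 and 1080 nt in mild EAE mice 3, 4 and 7, and 157, 0, 720 and 156 nt in severe EAE mice 1, 2, 5 and 6. Means were 733 ± 125 nt (SD, n = 3) in naïve and 386 ± 388 nt (n = 7) in EAE mice, within the spread (exact permutation test, p = 0.15). Of the 32 Celf2 footprints, 28 were intronic and 15 were repeat-masked over most of their length.

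The Celf2 stretch shown first was the only position of the 10 genes with a footprint in more than 5 mice. It had no footprint in naïve mouse 2, which had the highest Celf2 coverage among naïve mice, and in severe EAE mouse 2. In severe EAE mice 1 and 6 it was the only Celf2 footprint. As a share, Celf2 was at 27.5, 41.8 and 33.3 nt per 100000 in naïve mice 1, 2 and 3, and at 205 in severe EAE mouse 6, where this 1 footprint was set against 673 in all. The difference of shares was 16.4 with all EAE mice and −9.42 without severe EAE mouse 6, and neither passed the unadjusted test (exact permutation p = 0.858 and 0.429).

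Celf4, a mainly neuronal CELF gene on the minus strand of chromosome 18, had 42 footprints, 31 of them in introns. They covered 1555, 1606 and 266 nt in naïve mice 1, 2 and 3, followed by 334, 153 and 856 nt in mild EAE mice 3, 4 and 7. Severe EAE mouse 5 had 1133 nt and the other 3 severe EAE mice had none. Naïve mouse 3 overlapped the EAE mice, and the means of 1142 ± 759 nt (SD, n = 3) and 354 ± 461 nt (n = 7) gave an exact permutation p of 0.0583. As a share the values were 70.0, 78.1 and 12.2 nt per 100000 in naïve mice, followed by 21.6, 13.2 and 28.7 in mild EAE mice 3, 4 and 7, with 27.4 in severe EAE mouse 5. Here the exact permutation p was 0.0417 (adjusted p = 0.530), and it was 0.139 without naïve mouse 1 or naïve mouse 2 and 0.0595 without any 1 of severe EAE mice 1, 2 and 6, which had no Celf4 footprint.

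**Figure D3:**
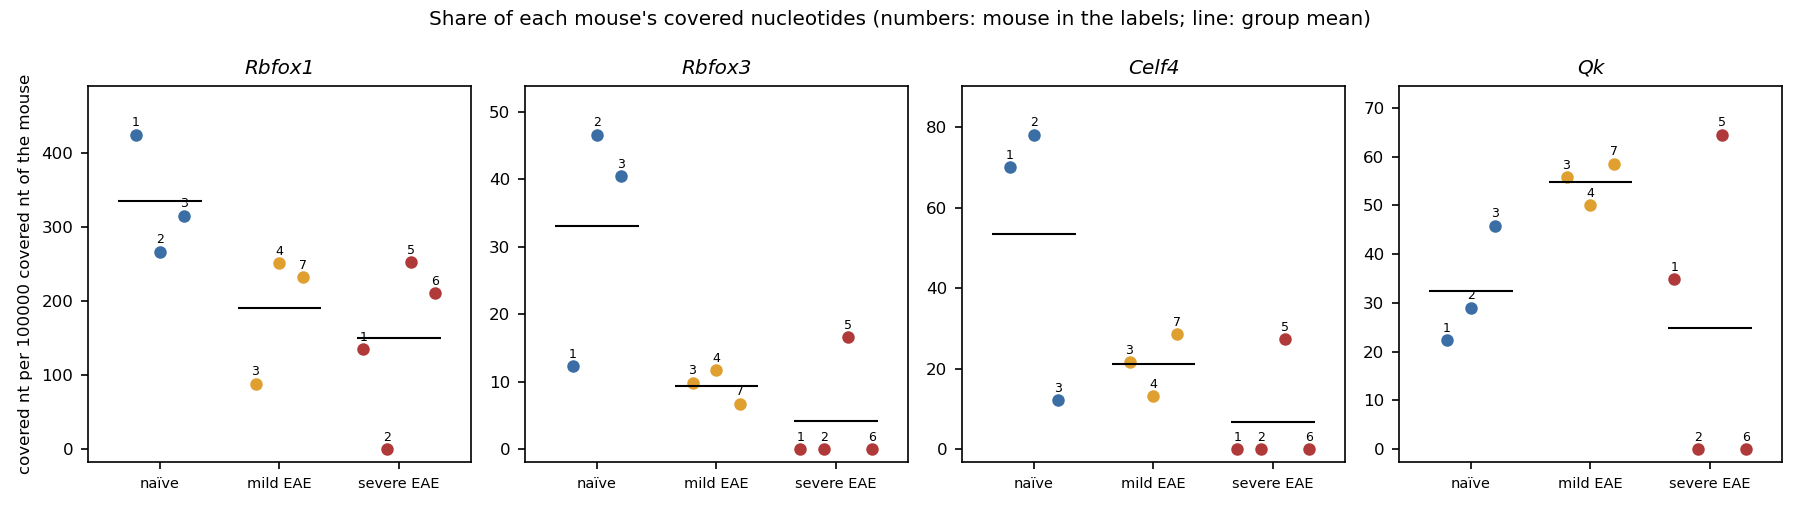
Covered nt per 100000 covered nt of the mouse (y axis, linear) for Rbfox1, Rbfox3, Celf4 and Qk, by group on the x axis. Points are mice, numbered as in the labels, and lines are group means. For Rbfox1 the naïve mice (267 to 424) lie above every EAE mouse, while for Rbfox3 and Celf4 1 naïve mouse lies among the EAE mice, and for Qk severe EAE mouse 5 and the mild EAE mice (50.1 to 64.5) lie above the naïve mice.

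Nova2, whose protein acts in neurons, had 6 footprints in all, each in a region of its own (chromosome 7, 18925888 to 18965319, plus strand). They covered 235 nt in naïve mouse 2, 198 nt in naïve mouse 3, 159 nt in mild EAE mouse 7 and 162 nt in severe EAE mouse 5, and the other 6 mice had none. The difference of all EAE from naïve mice was −98.5 nt (exact permutation test, p = 0.25).

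The muscleblind genes were footprinted in few mice. In Mbnl1 (chromosome 3, 60472830 to 60629750, plus strand), 122 and 245 nt were covered in naïve mice 1 and 2, 142 and 289 nt in mild EAE mice 3 and 7 and 590 nt in severe EAE mouse 5, and the other 5 mice had none. In Mbnl2 (chromosome 14, 120275669 to 120431697, plus strand), 779 and 560 nt were covered in naïve mice 1 and 3, 136 and 937 nt in mild EAE mice 3 and 7 and 1806 nt in severe EAE mouse 5. In both genes the highest mouse was severe EAE mouse 5 and the groups overlapped, with exact permutation p of 0.875 for Mbnl1 and 1 for Mbnl2. Of the 31 Mbnl2 footprints, 14 lay in UTRs and 14 in introns. In 4 mice (naïve mice 1 and 3, mild EAE mouse 3, severe EAE mouse 5) a pair of Mbnl2 footprints abutted the ends of the intron at 120275906 to 120324793, 48888 nt long, between exons classed as UTR.

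Footprints of Qk lay mostly in exons, above all in UTRs, and many recurred between mice. It spans 117254 nt on the minus strand of chromosome 17 (10202601 to 10319854) and held 59 footprints, 40 in UTRs, 11 in coding sequence and 8 in introns. Footprints of any mouse covered 264 of every 1000 exonic nt of Qk, the highest value of the 10 genes, and 9.56 of every 1000 intronic nt. Of its 30 merged regions, 15 were footprinted in at least 2 mice, all of them exonic. The region in the most mice, a UTR region at 10214751 to 10214940, was footprinted in naïve mice 1 and 2, mild EAE mouse 7 and severe EAE mice 1 and 5. Its common part of 91 nt held no UAG and was 30.8% purine, and the intronic stretches of Rbfox1 and Celf2 shown above were 69.6 to 85.7% purine. These are single selected stretches, and whole sets of footprints differed less. Purines made up 48.5% of all exonic Qk footprints, 58.1% of all intronic Rbfox1 footprints and 56.3% of all intronic Celf2 footprints. The rest of the Qk exons was 49.0% purine.

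Footprints covered 497, 596 and 1003 nt of Qk in naïve mice 1, 2 and 3, and 864, 579 and 1748 nt in mild EAE mice 3, 4 and 7. In severe EAE mice 1, 2, 5 and 6 they covered 115, 0, 2670 and 0 nt. Means were 699 ± 268 nt (SD, n = 3) in naïve and 854 ± 1015 nt (n = 7) in EAE mice, within the spread (exact permutation test, p = 0.858). As a share, Qk was at 22.4, 29.0 and 45.9 nt per 100000 in naïve mice 1, 2 and 3, at 55.8, 50.1 and 58.5 in mild EAE mice 3, 4 and 7 and at 34.8, 0, 64.5 and 0 in severe EAE mice 1, 2, 5 and 6. All mild EAE mice lay above all naïve mice, with the smallest p that 3 against 3 mice allow (exact permutation test, p = 0.1, adjusted p = 0.979). How many of all genes had this pattern by share was not counted, so whether Qk was unusual in it cannot be told. In covered nt, which is another unit, 707 of the 9195 genes tested had this smallest p in mild EAE, in either direction.

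Without the 3 severe EAE mice with the shortest lists, a choice made after the data had been seen, 4 EAE mice with at least 9751 footprints remained. Their Qk share was 57.2 ± 5.99 (SD, n = 4), against 32.4 ± 12.1 (n = 3) in naïve mice. The groups did not overlap (exact permutation test, unadjusted p = 0.0286, the smallest possible; adjusted p = 0.738), and Qk was the only one of the 10 genes called higher here, as were 1.75% of all genes tested. Rbfox1 was the only one called lower, as were 2.12% of all genes, at 206 ± 79.0 (SD, n = 4) against 335 ± 80.8 (n = 3; exact permutation test, p = 0.0286, adjusted p = 0.738). Both are shares of a list of which more was exonic in these EAE mice. How far this bears on either difference was not tested. Among exonic footprints alone, Qk held 0.420, 0.436 and 0.691 of 1000 in naïve mice 1, 2 and 3, followed by 0.492, 0.443, 0.594 and 0.598 in mild EAE mice 3, 4 and 7 and severe EAE mouse 5, and the groups overlapped. This scale counts footprints and not covered nt, so its overlap is not directly comparable with the share.

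Over the 10 genes, 1 had an unadjusted exact p below 0.05 in covered nt of all EAE against naïve mice, Rbfox3, lower in EAE. In all genes tested, 4.51% were lower and 1 gene was higher at this threshold. By share 3 of the 10 were lower, Rbfox1, Rbfox3 and Celf4, against 5.58% of all genes, and none was higher. In severe EAE against naïve mice none of the 10 passed it, against 2.51% of all genes in covered nt and 5.27% by share, and in mild EAE none could. In covered nt, 8 of the 10 means were lower in EAE, with a median difference of −120 nt, where 59.7% of all genes tested were lower, with a median of −20.2 nt. A difference in nt depends on how much of a gene was covered, so these medians do not compare relative changes. Of the 10 genes, 6 were footprinted in all 3 naïve mice (Rbfox1, Rbfox2, Rbfox3, Celf2, Celf4 and Qk), compared with 25.3% of all genes tested, and severe EAE mouse 5 was the highest of the 10 mice in 5 of them (Rbfox1, Celf1, Mbnl1, Mbnl2 and Qk), compared with 37.9% of all genes.

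A list of 25 further splicing regulators was examined in the same way, and 18 of these had footprints in at least 2 mice. In all EAE against naïve mice, 3 of the 18 (Elavl4, Srrm3 and Khdrbs2) had an unadjusted exact permutation p below 0.05 in covered nt, against 4.51% of all genes. By share, with Tia1, it was 4 of the 18, against 5.58%, and all were lower in EAE. No gene of the list passed the adjusted test. The 3 with the most covered nt over all mice were Msi2, which encodes Musashi-2, with 43 footprints in 7 mice, Elavl3, a neuronal Hu protein gene, with 20 in 8 mice, and Khdrbs2, which encodes SLM1, with 14 in 5 mice. No mouse had a footprint in the genes Celf6, Mbnl3, Rbm24, Rbm38, Esrp1 and Esrp2, which make 6 of the 25.

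Markers of the cell types of the cord were read from the same lists. The 7 neuronal markers together had shares of 135 to 333 nt per 100000 in the naïve group, 178 to 295 in the mild EAE group and 0 to 308 in the severe EAE group, and the 6 oligodendrocyte markers 95.9 to 312, 205 to 222 and 88.2 to 632. The 632 and the 88.2 each rest on 1 marker, with 154 and 67 nt, in severe EAE mice 2 and 6, which had the shortest lists. The 5 astrocyte markers had shares of 63.0 to 146, 172 to 202 and 0 to 422 in the same order of groups. The 9 immune markers, by contrast, reached at most 6.31 in a naïve mouse, whereas mild EAE mice had 74.5 to 177 and severe EAE mice 0 to 172. Neuronal markers with a footprint numbered 5 to 7 in naïve mice, 6 to 7 in mild EAE mice and 7 in severe EAE mouse 5, and oligodendrocyte markers 5 to 6, 5 to 6 and 6. Among the immune markers, 0 to 1 were footprinted in a naïve mouse, 6 to 8 in a mild EAE mouse and 7 in severe EAE mouse 5, while Cd3e was at 0 in every mouse. Their part in the differences of Rbfox1, Rbfox3, Celf4 and Qk was not tested.

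Across the 10 genes, 389 of 530 footprint midpoints (73.4%) lay in no exon of the gene, 61 lay in coding sequence, 78 in UTRs and 2 in other exons. Rbfox1 alone gave 288 of the intronic footprints, and without it 101 of 233 (43.3%) were intronic. The 3 genes with the most intronic footprints by percentage were Rbfox1 (97.0%), Celf2 (87.5%) and Celf4 (73.8%), and those with the fewest were Celf1 (0 of 4), Rbfox2 (11.1%) and Qk (13.6%). With the mice of a group pooled, the intronic part was 80.7% (naïve), 72.1% (mild EAE) and 61.3% (severe EAE), and 54.5%, 40.7% and 30.1% without Rbfox1. The severe EAE values are in effect those of mouse 5, which gave 133 of the 142 footprints, and 69 of 73 without Rbfox1. For the 9 genes without Rbfox1 it was 66.7%, 51.2% and 46.7% in naïve mice 1, 2 and 3, followed by 26.7%, 45.5% and 45.5% in mild EAE mice 3, 4 and 7, with 29.0% in severe EAE mouse 5. Each of these EAE mice lay below each naïve mouse, and the same was true of other genes (27.5 to 41.6% against 10.6 to 23.0%).

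**Figure D4:**
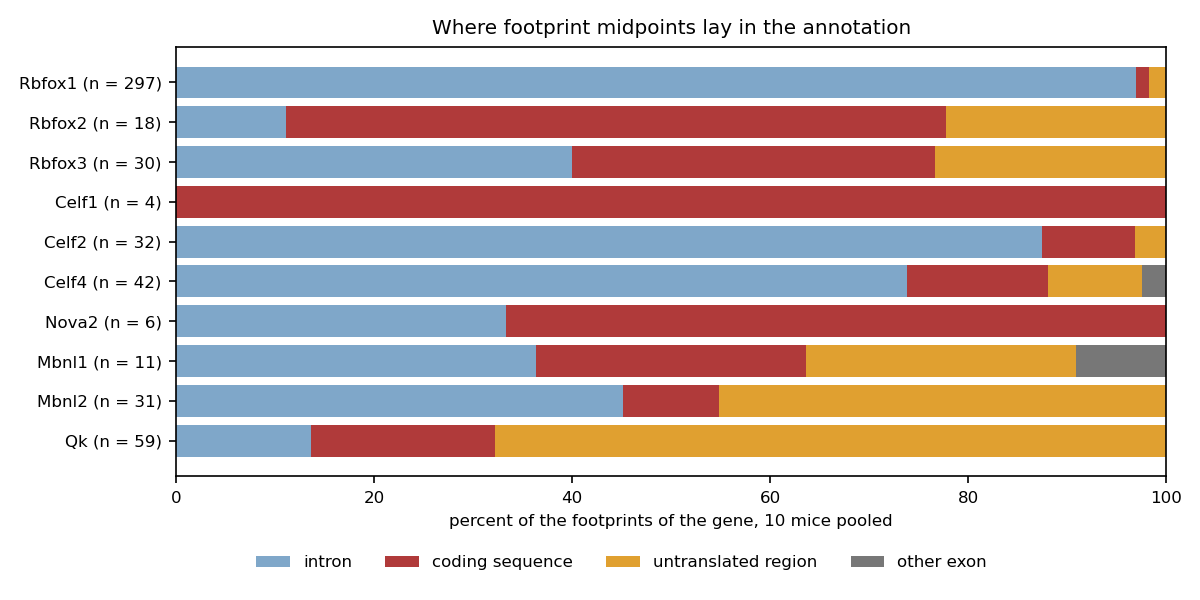
Percent of the footprints of each gene (x axis, 10 mice pooled, number of footprints beside each gene) with the midpoint in an intron, in coding sequence, in an untranslated region or in another exon. Rbfox1, Celf2 and Celf4 are mostly intronic (97.0, 87.5 and 73.8%), whereas Qk is mostly in untranslated regions (40 of 59).

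Footprints that ended exactly at an annotated exon end were frequent among exonic ones. In the 10 genes, 68 footprints did so, among 143 footprints that were exonic when every overlapping gene was considered (47.6%), compared with 69.9% of 93499 exonic footprints in other genes. In 33 cases, in 8 of the mice, 2 footprints of 1 mouse abutted both ends of the same annotated intron, at 25 introns. Rbfox3 had 8 such pairs, Rbfox2 and Mbnl2 6 each, Qk 4, and the other 6 genes 1 or 2 each. A footprint could belong to more than 1 pair, as in Rbfox3 and Qk, so the pairs are not all separate.

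Few positions were footprinted in several mice. The footprints of all mice merged into 377 regions, of which 297 (78.8%) came from 1 mouse, 80 from at least 2 and 41 from at least 3. Of the intronic regions 51 of 296 were found in at least 2 mice, and of the exonic ones 29 of 81. Naïve mice shared 33 stretches (at least 2 nt covered in at least 2 of the 3 mice), mild EAE mice 14 and severe EAE mice 2. In Rbfox1 alone these numbers were 22, 7 and 0. The 2 of severe EAE were the Celf2 stretch and the Qk UTR region. These are 1 count per group without replicates, and they follow the mice in the group: naïve mice shared 4 without mouse 1, 20 without mouse 2 and 11 without mouse 3, mild EAE mice shared 6, 5 and 9 without mouse 3, 4 and 7, and severe EAE mice shared 1 without mouse 1 or without mouse 5.

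**Figure D5:**
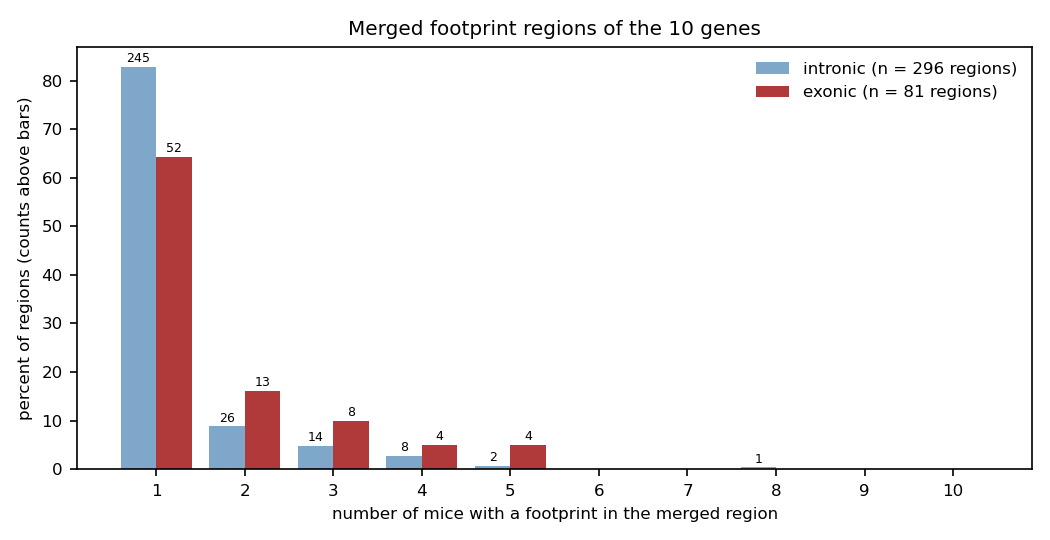
Number of mice with a footprint in a merged region of the 10 genes (x axis) and the percent of the intronic and of the exonic regions (y axis, counts above the bars). Most regions come from 1 mouse, 245 of 296 intronic and 52 of 81 exonic, and the region at 8 mice is the Celf2 stretch.

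The sequence of the footprints was compared with the rest of the same genes, on the strand of the gene. UAG occurred 18.5 times per 1000 nt in intronic footprints and 13.9 times in the rest of the introns, 9.40 times in exonic footprints and 11.6 times in the rest of the exons. On the opposite strand of the footprints it occurred 10.1 times. At least 1 UAG was in 254 of 296 intronic regions (85.8%) and in 84.4% of 26229 intronic windows of 144 nt, and at least 3 were in 43.2% of the regions and 31.8% of the windows. AGGU, which can overlap UAG, occurred 5.41 times per 1000 nt in intronic footprints and 3.97 times in the rest of the introns. Purines made up 57.8% of intronic footprints and 49.4% of the rest of the introns.

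Motifs of the regulators themselves were about as frequent in intronic footprints as in the rest of the introns, or less so. UGCAUG (RBFOX) occurred 0.299 times per 1000 nt in these footprints and 0.540 times in the rest of the introns, UGUGUG (CELF) 1.13 and 2.55 times, UGCUU (MBNL) 0.855 and 1.85 times, UCAU (NOVA) 3.70 and 5.25 times and ACUAA (QKI) 0.812 and 0.810 times. Regions with at least 1 copy were 4.05% against 6.49% of windows for UGCAUG, 5.74% against 10.5% for UGUGUG, 12.2% against 22.2% for UGCUU, 37.8% against 50.7% for UCAU and 12.2% against 10.5% for ACUAA. Other genes were compared over all mice, without merging, in intronic footprints that overlapped 1 annotated gene. The 10 genes and other genes had 0.227 and 0.284 UGCAUG per 1000 nt, 0.698 and 0.915 UGCUU, and 3.47 and 3.52 UCAU. They had 0.785 and 0.886 ACUAA, and 1.08 and 0.697 UGUGUG. Low values of these motifs were thus not particular to the 10 genes. All these are descriptions of letters in whole footprints, which carry no crosslinked position.

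Between mice, UAG in intronic Rbfox1 footprints was 23.7, 15.0 and 27.8 per 1000 nt in naïve mice 1, 2 and 3, 27.4, 26.5 and 24.5 in mild EAE mice 3, 4 and 7 and 21.4 in severe EAE mouse 5. Naïve mouse 2 was the lowest of these 7 mice, and it was also the lowest in purine, at 50.5% against 59.6 to 70.4%. Intronic footprints of other genes had 22.7, 13.3 and 27.6 UAG per 1000 nt in the naïve mice and 21.3 to 33.8 in the 4 EAE mice, with naïve mouse 2 again the lowest. Over all mice, without merging, intronic footprints of the 10 genes had 23.6 UAG per 1000 nt and those of other genes 22.1.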

How the data were processed

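CLIPseq of hnRNP A1 (crosslinking, immunoprecipitation and sequencing) was performed on spinal cord of 10 mice. The authors built contigs from the trimmed reads with rnaSPAdes and placed them on GRCm38 with minimap2 (version 2.17, per the submitters' processing notes). They then subtracted every site that the input of the same mouse or the IgG pools also contained, and merged what overlapped with bedtools. Subtraction by position also trims footprints and removes sites in RNA abundant in the input. The deposited lists hold a chromosome, a start and an end, with no score, count or strand, so the signal behind a footprint is unknown, and the number of mice limits the precision. The inputs, the IgG pools and the other peak calls of the study were not analysed here.

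Genes, exons and repeats were those of GENCODE release 21 (mouse, patch 6) and of the soft-masked GRCm38 genome. A footprint was intronic when its midpoint lay in no exon of the gene. Covered nt per gene and mouse were tested by a two-sided exact permutation test of the difference of group means, with Benjamini-Hochberg adjustment over 9195 genes, using Python 3.11.15, numpy 2.4.6, scipy 1.17.1, pysam 0.24.0 and matplotlib 3.10.9. As a check of the code, data were simulated with 200 genes raised 5-fold in all EAE against naïve mice. All 200 had an unadjusted exact permutation p below 0.05. The simulated mice were of equal depth and the raised genes were well covered, so this does not give the power of the test in the real lists. Mice were grouped by the clinical scores in the labels. Mouse numbers are shared between naïve and EAE mice but name different animals, so the main test was unpaired.

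Alternatives were the unit, the scale, the footprint length, the gene span, overlapping genes, the genes tested, a replicate block and leaving out each mouse. Library totals of the study entered 1 alternative (covered nt per 1000000 mapped unique reads). All 10 genes are named, with the 3 further regulators with the most covered nt. Regions were chosen as those in the most mice and those shared by at least 2 mice of each of several groups. Sequences of regions in UTRs, of Celf4 and of 1 further region are not reported here. Tia1, Elavl4, Srrm3 and the 6 regulators without a footprint were named after their values were seen. The genes and lists were chosen with earlier results of these data known.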

Additional observations from a re-analysis of the deposited data

Results flagged for a closer look

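Within the severe EAE group, mouse 5 stood far above the other 3 mice in most of the 10 genes. Its gap to the next mouse, as a part of the whole range of the 4 mice, was 0.957 for covered nt of Rbfox1 and 0.957 for Qk. For Rbfox3, Celf1, Celf4, Nova2, Mbnl1 and Mbnl2 it was 1, since the other 3 mice had no footprint, both in covered nt and per 100000 covered nt. By the 95% critical value of Dixon's test for 4 values, 8 of the 10 genes stood out in covered nt and 6 of the 10 as a share. Chance alone marks about 1 group in 20. Over all 9195 genes, 68.0% did so in covered nt and 69.5% as a share, so this was not particular to the 10 genes. The list of severe EAE mouse 5 was the longest of the 10, at 31870 footprints, and those of the other 3 were the shortest, at 2670, 209 and 673. The study also describes severe EAE mouse 5 as an outlier of its group, with a binding profile like those of naïve and mild EAE mice. It reports that this mouse had been in remission shortly before the experiment ended.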

How the results depend on the processing

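No gene passed an adjusted 0.05 in any of the 3 comparisons under any alternative run, by the exact permutation test (smallest adjusted p 0.145, with covered nt per 1000000 mapped unique reads). At an unadjusted exact p below 0.05 in all EAE against naïve mice, 415 genes were lower and 1 higher. Without the 3 severe EAE mice with the shortest lists these counts were 93 and 112, and without severe EAE mouse 5 they were 760 and 2. With the replicate block (EAE mice 1, 2 and 3 each set against the naïve mouse of the same number) no gene could pass, since the smallest p was 0.25 in all EAE and 0.5 in severe EAE, and the count of adjusted calls was 0. In mild EAE, naïve mice share only number 3, so a replicate block could not be fitted there. Deviations of same-numbered mice correlated at −0.0317, 0.140 and 0.0248, and those of mice with different numbers at −0.0843 to 0.0653. These few pairs, which include severe EAE mouse 2 with 209 footprints, cannot decide whether the numbers mark pairs.

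When 3 mice of the group had to share a stretch, naïve mice had 1, mild EAE mice 3 and severe EAE mice 1. With 1 mouse left out, stretches shared by 2 mice ranged from 4 to 20 (naïve), from 5 to 9 (mild EAE) and from 1 to 2 (severe EAE). The other alternatives gave 32 to 33, 14 and 2.

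Of the differences of all EAE from naïve mice in covered nt, those of Rbfox1, Rbfox3, Celf4 and Nova2 kept their direction under every alternative run, as did that of Rbfox2 except by share with 1 mouse left out. The others changed sign as follows. Celf2 was at 16.4 by share. Mbnl1 was at −1.08 by share, −25.9 per 1000000 reads, −1.45 on the log2 scale and −75.0 with the replicate block. Qk was at −73.5 per 1000000 reads, −0.619 in number of footprints, −2.53 on the log2 scale and −372 with the replicate block. Celf1 was at 0.0952 in number of footprints and Mbnl2 at 2.90 nt with footprints in 1 annotated gene only. Without the 3 mice with the shortest lists (chosen after seeing the data), Celf1 was at 14.6 nt and Mbnl2 at 273 nt, and by share Celf2 was at −8.92, Mbnl1 at 2.47 and Mbnl2 at 0.71. With 1 mouse left out, differences ran from −48.7 to 36.1 nt for Celf1, −50.5 to 84.9 for Mbnl1, −268 to 131 for Mbnl2 and −148 to 307 for Qk. By share (added after seeing the data) they ran from −6.68 to 1.67 for Rbfox2, −2.42 to 0.873 for Celf1, −9.42 to 24.8 for Celf2 and −3.98 to 1.98 for Mbnl1. The cause was not tested.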
